A study of Rattus norvegicus with 23 samples.

Results

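The let-7 family of microRNAs was followed across mammary carcinomas and normal mammary tissue of female Sprague-Dawley rats. The members were chosen by name on the array: rno-let-7a, rno-let-7b, rno-let-7c, rno-let-7d, rno-let-7e, rno-let-7f, rno-let-7i, rno-miR-98, and the opposite arms rno-let-7b* and rno-let-7d*. They are 10 of the 350 rat miRNAs on the array. Total RNA labelled with Cy3 was hybridised to 1-colour Agilent miRNA arrays, 1 array per sample. The groups were 8 radiation-induced mammary carcinomas, 8 spontaneous mammary carcinomas and 7 normal mammary tissues. All came from females of 1 strain. The age, the radiation dose and the treatment of the rats that gave normal tissue are not given in the sources used here. Nor do they say whether each sample came from a separate animal, so p-values measure the spread between these samples.

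let-7 miRNAs are short RNAs of animals that lower the output of target messenger RNAs. A precursor hairpin is cut into a duplex, and the guide strand is kept in the silencing complex while the passenger strand, marked with a star, is mostly lost. Bases 2 to 8 of the guide, the seed, pair with targets. In mammals the family accumulates as cells differentiate, the protein LIN28 blocks maturation of its precursors, and human targets include the RAS genes, MYC and HMGA2.

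All 10 members matched a mature sequence of the RefSeq table for rat build GRCr8. The 8 guide strands are shown because they share a seed and differ by few bases, so each is a separate probe target of nearly equal sequence. Sequences run 5′ to 3′ and capitals mark the seed.
rno-let-7a: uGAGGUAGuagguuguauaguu
rno-let-7f: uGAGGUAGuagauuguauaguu
rno-let-7b: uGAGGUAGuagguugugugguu
rno-let-7c: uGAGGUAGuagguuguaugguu
rno-let-7d: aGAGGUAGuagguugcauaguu
rno-let-7e: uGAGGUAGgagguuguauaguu
rno-let-7i: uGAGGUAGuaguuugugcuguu
rno-miR-98: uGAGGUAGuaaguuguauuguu

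The seed GAGGUAG was shared by 9 of the 693 mature names in that table, the 8 guide members and let-7g, which is not among the probes analysed here. With positions counted from 1 at the 5′ end and let-7a as the reference, let-7f differed by G12A, let-7c by A19G and let-7e by U9G. let-7b, let-7d and miR-98 carried 2 differences each, A17G and A19G in let-7b, U1A and U16C in let-7d, and G11A and A19U in miR-98. let-7i was the most distant with 4, G12U, A17G, U18C and A19U. Cross-hybridisation between probes that differ by so few bases was not tested.

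The passenger arms have other seeds. They are shown because they changed where the guides of the same hairpins did not pass the test as reported. They differ from each other by A7G, A12G, C20U and C22U (let-7b* first).
rno-let-7b*: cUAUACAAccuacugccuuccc
rno-let-7d*: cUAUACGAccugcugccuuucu

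In the 98-base hairpin of let-7d, both arms (capitals) come from 1 transcript, the guide at bases 14 to 35 and let-7d* at bases 68 to 89.
Mirlet7d: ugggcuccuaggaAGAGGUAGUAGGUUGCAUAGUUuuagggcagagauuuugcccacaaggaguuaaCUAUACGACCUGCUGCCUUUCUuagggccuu

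Levels are log2 of the probe signal after each array was scaled to a common 75th percentile, taken over 199 probes that were well above background on every array. Values under 9.82 (log2 3.30) were set to that floor. Differences are log2, the first-named group minus the second, from a limma fit over the 199 miRNAs detected on at least 7 arrays, and a call is a Benjamini-Hochberg adjusted p under 0.05 over those 199. All 10 members were among them, and 9 were well above background on all 23 arrays, the exception being let-7b*. Spontaneous carcinoma arrays were dimmer before scaling, with a 75th percentile of 335 to 936, against 729 to 2032 on radiation-induced and 960 to 2494 on normal arrays. The arrays lay on 4 slides. Slides 1 and 2 held 5 spontaneous, 4 normal and 0 radiation-induced arrays, slide 3 held 5 radiation-induced, 2 normal and 0 spontaneous arrays, and slide 4 held 3 radiation-induced, 3 spontaneous and 1 normal. Of the 5 epithelial miR-200 family miRNAs, 5 were detected on 21 arrays and 0 on 2, radiation-induced carcinoma 3 and spontaneous carcinoma 1 (numbers in accession order). Those 2 samples therefore lacked the epithelial markers of their labelled tissue.

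Of the 8 guide strands, let-7a, let-7b, let-7c, let-7d, let-7e and let-7f gave no call in any of the 3 comparisons as reported. let-7i was 1.76-fold higher in radiation-induced than in spontaneous carcinomas. miR-98 was 1.40-fold higher in radiation-induced and 1.56-fold higher in spontaneous carcinomas than in normal tissue. The passenger arm let-7d* was 1.83-fold and 2.15-fold higher in the same comparisons, and let-7b* was called in spontaneous carcinomas. In these whole-tissue samples, fewer cells of a type and less RNA per cell cannot be told apart.

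**Figure D1:**
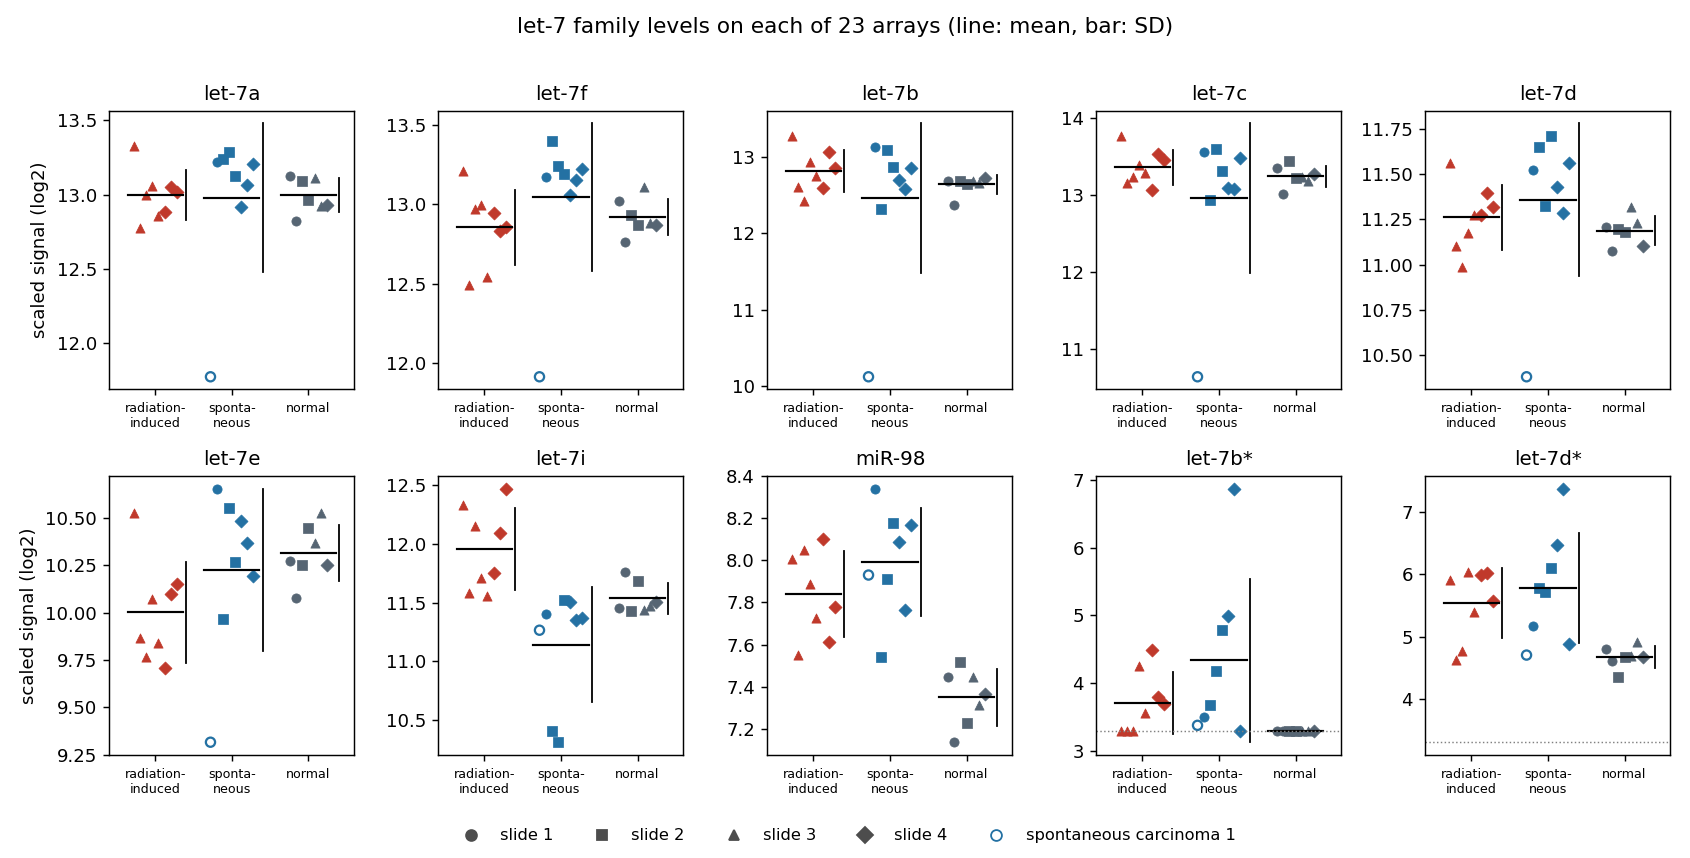
Log2 scaled signal of the 10 members on each array, by group (radiation-induced, spontaneous, normal), with marker shape for the slide, a line for the mean and a bar for the SD; the dotted line in the panels of the passenger arms is the floor. let-7i lies at 11.55 or more on every radiation-induced array and at 11.52 or less on every spontaneous array, and the open circle, spontaneous carcinoma 1, lies apart in let-7a, let-7f, let-7b, let-7c and let-7d.

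let-7a and let-7f, guides that share a cluster on chromosome 17 in GRCr8, gave no call in any comparison. let-7a, produced from 2 genes, ran at 12.77, 13.01 and 13.33 (lowest, median, highest) in radiation-induced carcinomas, 11.78, 13.17 and 13.28 in spontaneous carcinomas and 12.82, 12.97 and 13.13 in normal tissue. Apart from 1 low spontaneous array, the groups overlapped. The radiation-induced minus spontaneous difference of let-7a was 0.02 ± 0.17 (SE), with a 95% interval of -0.34 to 0.37. let-7f ran at 12.50, 12.90 and 13.21 in radiation-induced, 11.91, 13.18 and 13.40 in spontaneous and 12.76, 12.88 and 13.11 in normal samples. Its 7 higher spontaneous arrays lay between 13.06 and 13.40, at the upper end of the other groups. The radiation-induced minus spontaneous difference of let-7f was -0.19 ± 0.17 (limma adjusted p = 0.447). Without spontaneous carcinoma 1, rno-let-7f fell by 0.35 in radiation-induced against spontaneous carcinomas (limma adjusted p = 0.0271), and spontaneous carcinomas were higher than normal tissue by 0.28 (limma adjusted p = 0.0424).

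let-7b and let-7c, guides of neighbouring genes on chromosome 7, were not called either. let-7c also comes from a gene on chromosome 11, whose share of the signal cannot be told apart. let-7b ran at 12.42, 12.80 and 13.26 in radiation-induced, 10.12, 12.77 and 13.13 in spontaneous and 12.37, 12.68 and 12.72 in normal samples. let-7c ran at 13.06, 13.34 and 13.77 in radiation-induced, 10.64, 13.19 and 13.60 in spontaneous and 13.02, 13.23 and 13.44 in normal samples. The medians lay close together and the groups overlapped, with the lowest value of both again on spontaneous carcinoma 1. The radiation-induced minus spontaneous difference was 0.35 ± 0.30 for let-7b and 0.40 ± 0.29 for let-7c, with 95% intervals of -0.26 to 0.97 and -0.21 to 1.00.

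let-7d, the guide of the hairpin printed above, ran at 10.99, 11.28 and 11.56 in radiation-induced, 10.38, 11.48 and 11.71 in spontaneous and 11.08, 11.20 and 11.32 in normal samples. It was not called as reported, though 7 of 8 spontaneous carcinomas lay above the normal mean. Its second probe gave 0.52 for spontaneous minus normal, against 0.17 for the probe used. With the second probes 4 members were called higher there, let-7d among them, where 23.6% of all tested miRNAs were higher. Without spontaneous carcinoma 1, rno-let-7d was higher in spontaneous carcinomas than in normal tissue by 0.31 (limma adjusted p = 0.0181). let-7e, from a gene on chromosome 1 beside the miR-99b and miR-125a genes, ran at 9.71, 9.97 and 10.53 in radiation-induced, 9.32, 10.32 and 10.65 in spontaneous and 10.08, 10.27 and 10.53 in normal samples. 7 of 8 radiation-induced carcinomas lay below the normal mean of let-7e, and the difference of -0.31 ± 0.17 was not called (limma adjusted p = 0.197).

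let-7i, the guide most distant in sequence and the product of a single gene, separated both carcinoma groups. It ran at 11.55, 11.92 and 12.47 in radiation-induced carcinomas, 10.31, 11.36 and 11.52 in spontaneous carcinomas and 11.43, 11.47 and 11.76 in normal tissue. Every radiation-induced carcinoma lay above every spontaneous one, by little at the border (11.55 against 11.52), and spontaneous carcinomas 3 and 4 were the lowest at 10.40 and 10.31. The mean was 11.96 ± 0.35 in radiation-induced and 11.14 ± 0.49 in spontaneous carcinomas (SD, n = 8 each). The difference was 0.82 ± 0.19 (SE; limma adjusted p = 0.0121), and the exact two-sided permutation test of the 2 groups gave p = 0.000155 before any adjustment. It was the only one of 10 members called between the carcinoma groups: 1 was higher, against 8.04% of all tested miRNAs called higher, and 0 were lower, against 10.1% called lower. A share of 1 in 10 is near that background. Groups that did not overlap were found for 1 of 10 members, against 1.51% of all tested miRNAs, a larger share that rests on let-7i alone. The members' median difference was -0.12, beside -0.02 over the 199 miRNAs.

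The order of the let-7i means was radiation-induced, normal, spontaneous, and neither neighbouring pair was called as reported. Radiation-induced minus normal was 0.42 ± 0.20 (limma adjusted p = 0.122), with 8 of 8 carcinomas above the normal mean of 11.53 ± 0.13 (SD, n = 7). Spontaneous minus normal was -0.40 ± 0.20 (limma adjusted p = 0.116), with 8 of 8 below that mean. These comparisons of rno-let-7i with normal tissue depended on the setting. Radiation-induced minus normal was called with the second probe (0.57, limma adjusted p = 0.0385), with only the 2 groups fitted (0.42, adjusted p = 0.0358) and with only M-coded spontaneous carcinomas in the fit (0.42, adjusted p = 0.0283). Spontaneous minus normal was called lower with the percentile over all probes (-0.86, limma adjusted p = 0.00588), normexp (-0.43, adjusted p = 0.0407), no scaling (-1.75, adjusted p = 0.000154) and the deposited value table (-1.63, adjusted p = 0.000360), and was -0.14 with the second probe. For the difference between the carcinoma groups the 2 probes gave 0.72 and 0.82. Without any 1 array it stayed between 0.70 and 0.87 with limma adjusted p of 0.0096 to 0.0295.

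The call for rno-let-7i depended on the model. It was lost when slide was fitted as a block (0.81, limma adjusted p = 0.0658), when only the 16 carcinoma arrays were fitted (0.82, adjusted p = 0.0536), with array brightness as a covariate (0.61, adjusted p = 0.472), under quantile normalization (0.59, adjusted p = 0.0861) and with the 3 spontaneous carcinomas whose titles start with M, as all radiation-induced titles do (0.55, adjusted p = 0.106). On slide 4, which held 3 arrays of each carcinoma group, the difference was 0.70 (adjusted p = 0.269). The 3 spontaneous carcinomas on slide 4 were the same 3 whose titles start with M. The 5 others, with titles starting with K, lay on slides 1 and 2. Title letter and slide therefore cannot be told apart among the spontaneous carcinomas. The sign was positive in each of these settings. Under all scalings let-7i also lay above the median of all miRNAs in this comparison, by 0.59 to 1.26.

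**Figure D2:**
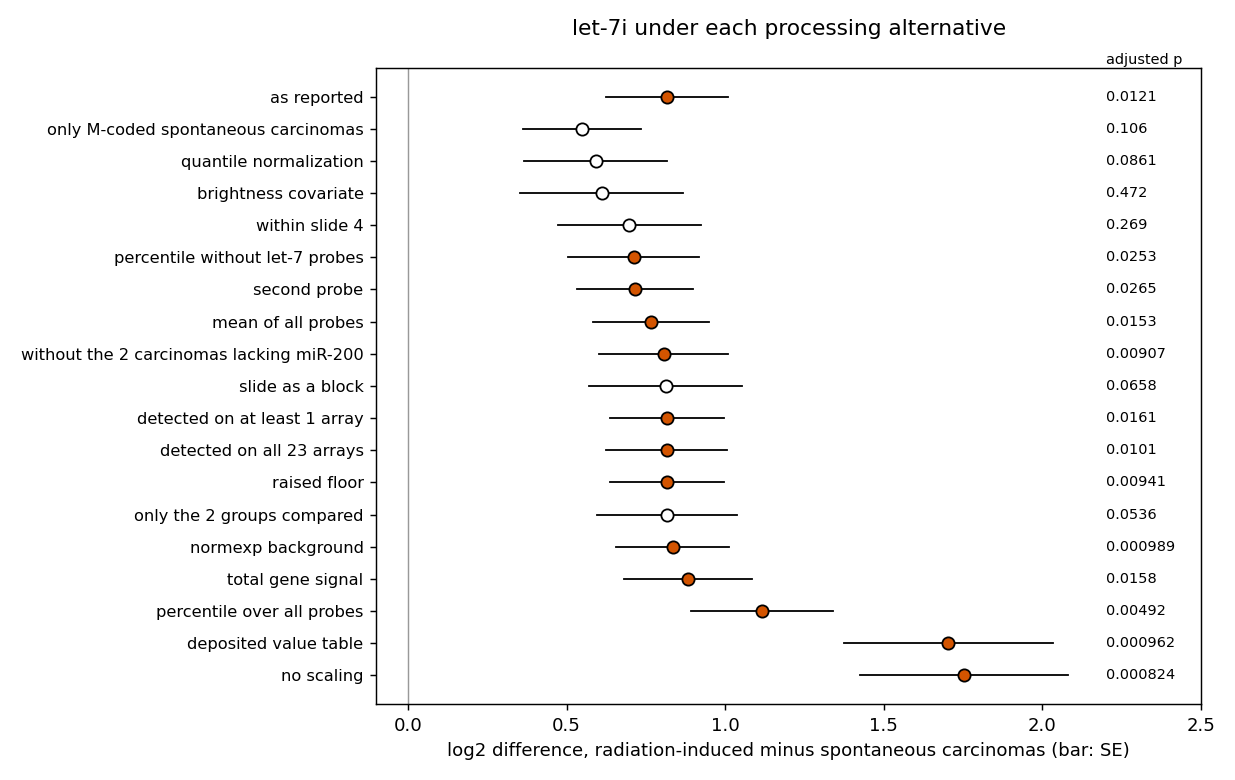
The let-7i difference, radiation-induced minus spontaneous carcinomas, as log2 (x axis, bar for the SE), as reported and under each alternative setting (rows), with the adjusted p at the right; filled points have an adjusted p under 0.05. All points lie above 0, between 0.55 and 1.75, and 6 alternatives are open points.

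Relative to let-7a on the same array, which cancels any scaling by 1 factor per array, let-7i was higher in radiation-induced than in spontaneous carcinomas by 0.80 ± 0.26 (limma adjusted p = 0.0474). Here 1 member was called higher, against 6.57% of the 198 other miRNAs, and 0 lower, against 5.05%. The call was lost in 17 of 23 fits that each left out 1 array, and relative to let-7c in place of let-7a. In the relative fits against normal tissue let-7i was not called (radiation-induced 0.42, adjusted p = 0.271, and spontaneous -0.38, adjusted p = 0.279).

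The median sum of the smooth muscle and fibroblast markers was higher in radiation-induced than in spontaneous carcinomas, as let-7i was, but not higher than in normal tissue. The summed scaled signal of the 5 smooth muscle and fibroblast miRNAs (miR-143, miR-145, both arms of miR-199a, and miR-214) ran at 5969, 10080 and 25124 in radiation-induced, 2668, 5993 and 9496 in spontaneous and 9470, 10304 and 14522 in normal samples. All 5 were detected on every radiation-induced and normal array and 4 or 5 on each spontaneous array. The endothelial median was also higher in radiation-induced than in spontaneous carcinomas, and both were far below normal tissue, while the leukocyte, striated muscle and erythroid medians were lowest in radiation-induced carcinomas. The endothelial sum over 3 miRNAs ran at 342, 831 and 2756 in radiation-induced, 318, 623 and 1013 in spontaneous and 1392, 1909 and 2411 in normal samples. Of these, 1 to 3 were detected on radiation-induced, 1 to 2 on spontaneous and 3 on normal arrays. The sum is mostly miR-126, with a mean log2 level of 9.83, against 4.51 for miR-126* and 3.91 for miR-139-5p. The leukocyte sum over 4 ran at 926, 1598 and 5058, at 221, 1979 and 3926, and at 1660, 2539 and 3380 in the radiation-induced, spontaneous and normal groups. The median striated muscle sum over 3 was 38.5, 84.7 and 76.3, and the median erythroid sum over 2 was 108, 222 and 224, in the same order of groups. The striated muscle miRNAs lay near the floor, with 0 to 3 detected on radiation-induced, 0 to 2 on spontaneous and 2 to 3 on normal arrays. Of the erythroid miRNAs 1 to 2 were detected on each array. The part of the floor and of array brightness in the order of these medians was not tested. The part of these signals in the let-7i difference was not tested. Over all 23 arrays the non-members most like let-7i were miR-143 (r = 0.78), miR-130a (0.72), miR-145 (0.70) and miR-497 (0.67). Without spontaneous carcinomas 3 and 4 these values were 0.52, 0.39, 0.53 and 0.48, and all share array, scaling and group differences.

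miR-98, a guide with the let-7 seed from an X-linked gene next to a let-7f gene, was higher in both carcinoma groups than in normal tissue. It ran at 7.55, 7.83 and 8.10 in radiation-induced carcinomas, 7.54, 8.01 and 8.34 in spontaneous carcinomas and 7.14, 7.36 and 7.52 in normal tissue. Every carcinoma lay above every normal sample, with the lowest spontaneous (7.54) just over the highest normal (7.52). The mean was 7.84 ± 0.21 in radiation-induced and 7.99 ± 0.26 in spontaneous carcinomas (SD, n = 8 each), and 7.35 ± 0.13 in normal tissue (SD, n = 7). Radiation-induced minus normal was 0.49 ± 0.13 (SE; limma adjusted p = 0.0101), and spontaneous minus normal 0.64 ± 0.13 (limma adjusted p = 0.000726). The 2 comparisons share the normal samples. Radiation-induced minus spontaneous was -0.15 ± 0.13 (limma adjusted p = 0.422), with a 95% interval of -0.42 to 0.12. The median summed signal of the 5 epithelial miRNAs was also higher in both carcinoma groups, with lowest, median and highest values of 49.1, 16439 and 19885 in radiation-induced, 49.1, 17908 and 26676 in spontaneous and 3442, 7749 and 10797 in normal samples. Without the 2 carcinomas at 49.1, miR-98 differed from normal tissue by 0.46 and 0.65, both called. The part of the epithelial signal in the results for rno-miR-98 and the passenger arms was not tested.

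Across radiation-induced carcinomas and normal tissue, 2 of 10 members were called higher, miR-98 and let-7d*, against 16.6% of all tested miRNAs, and 0 lower, against 8.54%. Non-overlap held for 1 member against 9.05% of all. Across spontaneous carcinomas and normal tissue 3 of 10 were called higher, miR-98, let-7d* and let-7b*, against 26.1%, and 0 lower, against 14.6%. Non-overlap held for 1 member against 15.6% of all. These shares lie near the background. The members' median was 0.14 beside 0.14 over all miRNAs for radiation-induced, and 0.05 beside 0.23 for spontaneous carcinomas.

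These directions rest on scaling. With the percentile over all probes rno-miR-98 was not called in radiation-induced (0.33, limma adjusted p = 0.186) or in spontaneous carcinomas (0.18, adjusted p = 0.473), nor under quantile normalization (0.21, adjusted p = 0.431, and 0.34, adjusted p = 0.135). With array brightness as a covariate the call was lost in spontaneous carcinomas (0.60, adjusted p = 0.125) and not in radiation-induced ones (0.48, adjusted p = 0.0253). With no scaling, the median difference over all 199 miRNAs in spontaneous carcinomas against normal tissue was -0.98, beside 0.23 as reported, and 8 of 10 members were called lower and 0 higher, where 56.3% of all tested miRNAs were called lower and 2.01% higher. rno-miR-98 was then lower by 0.71 in that comparison, that is, above that median by 0.27. Above the same median it stood at 0.41 as reported. Against normal tissue, 0 members were called in radiation-induced carcinomas without scaling, where 2.01% of all tested miRNAs were called higher and 11.6% lower. With slide as a block, rno-miR-98 in radiation-induced carcinomas was at 0.47 (limma adjusted p = 0.0590), and in spontaneous ones at 0.65 (limma adjusted p = 0.00240). Within slide 4, with 1 normal array, the values were 0.47 and 0.65, and on slides 1 and 2 spontaneous minus normal was 0.85 and 0.51, none called alone.

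**Figure D3:**
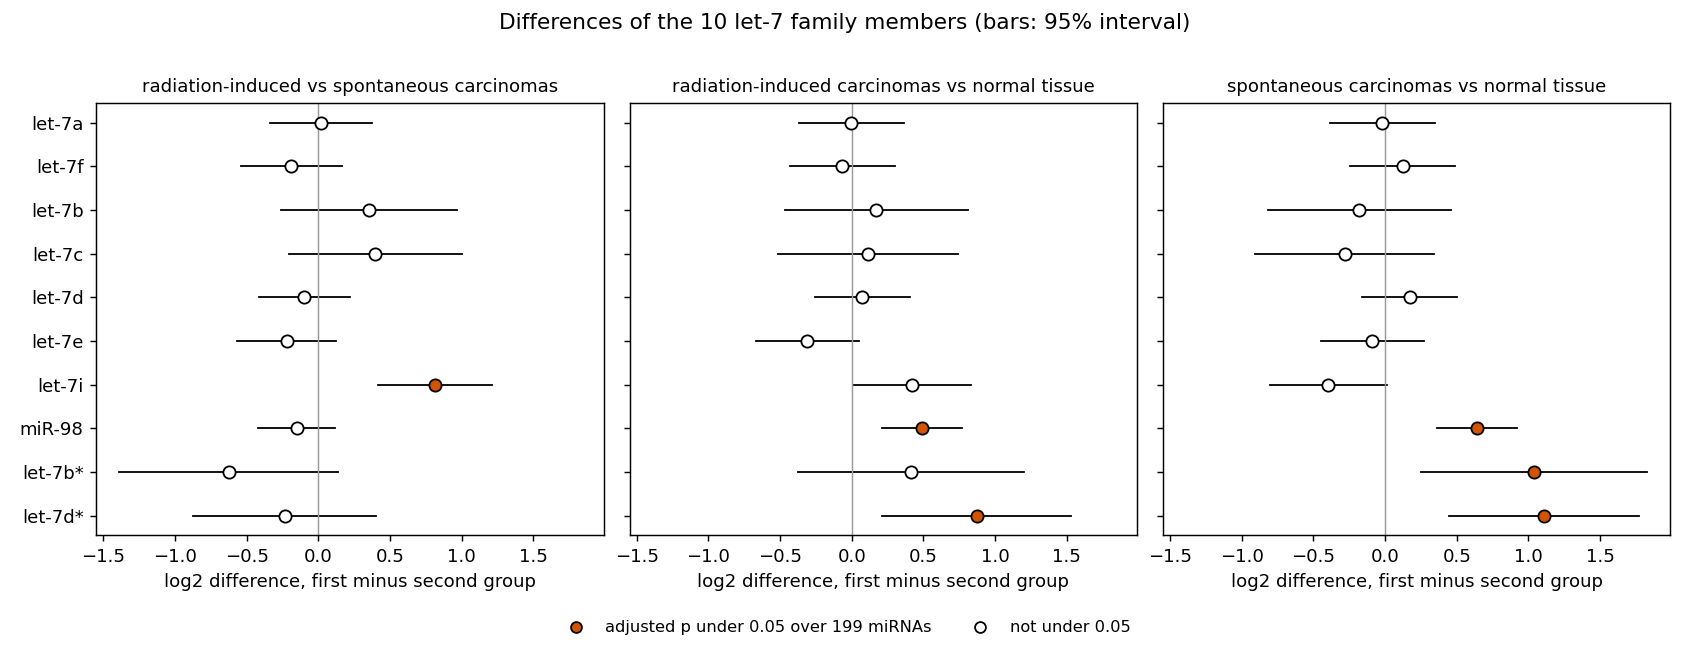
Log2 difference of each member (y axis) in the 3 comparisons, first group minus second (x axis), with 95% intervals; filled points have an adjusted p under 0.05 over 199 miRNAs. The filled points are let-7i in the left panel, miR-98 and let-7d* in the middle, and miR-98, let-7b* and let-7d* at the right.

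Relative to let-7a, 0 members were called in radiation-induced carcinomas against normal tissue, where 8.08% of 198 miRNAs were called higher and 5.56% lower. miR-98 stood at 0.49 there (limma adjusted p = 0.0964) and let-7d* at 0.87 (limma adjusted p = 0.0582). At an unadjusted limma p under 0.05, miR-98, let-7d* and let-7e passed. The share of all 198 passing it is not given here, and in the fit without the let-7a reference 75 of 199 miRNAs passed. In spontaneous carcinomas 3 members were called higher relative to let-7a, against 23.2% of all, and 0 lower, against 14.1%. They were miR-98 at 0.66 (limma adjusted p = 0.0121), let-7b* at 1.06 (limma adjusted p = 0.0370) and let-7d* at 1.13 (limma adjusted p = 0.00719). The let-7b* call was lost in 10 of 23 fits that each left out 1 array, and in 9 of 17 alternatives. All 7 normal values of let-7b* were the floor, which was set after scaling, so the scaling does not cancel for this member.

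The X-linked neighbours miR-98 and let-7f were set against each other after their values were seen. Relative to let-7f, miR-98 was higher in radiation-induced carcinomas than in normal tissue by 0.56 ± 0.19, not called (limma adjusted p = 0.0530, 9.6% of all called higher). In spontaneous carcinomas it was higher by 0.52 ± 0.19 (limma adjusted p = 0.0401, 19.2% of all called higher), a call lost in 10 of 23 fits that each left out 1 array. let-7f also comes from a gene on chromosome 17, whose share of the signal cannot be told apart.

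let-7d*, the passenger arm, was low in normal tissue and spread widely in carcinomas. It ran at 4.63, 5.74 and 6.04 in radiation-induced carcinomas, 4.70, 5.74 and 7.38 in spontaneous carcinomas and 4.35, 4.67 and 4.91 in normal tissue. The carcinoma medians were above every normal sample, but radiation-induced carcinomas 2 and 3 and spontaneous carcinomas 1 and 8 lay within the normal range. The mean was 5.54 ± 0.57 in radiation-induced and 5.78 ± 0.89 in spontaneous carcinomas (SD, n = 8 each), and 4.67 ± 0.18 in normal tissue (SD, n = 7). Radiation-induced minus normal was 0.87 ± 0.32 (limma adjusted p = 0.0491), a call lost in 17 of 23 fits that each left out 1 array. Spontaneous minus normal was 1.11 ± 0.32 (limma adjusted p = 0.00824), kept in all 23 such fits. Both calls depended on scaling. With the percentile over all probes neither was kept (radiation-induced 0.71, limma adjusted p = 0.0723, spontaneous 0.65, adjusted p = 0.0563). Under quantile normalization only the spontaneous one was (0.74, adjusted p = 0.0465). The radiation-induced call was lost in 14 of 20 alternatives. The spontaneous call was lost in 5 of 21, and the sign turned in 1. With slide as a block rno-let-7d* was at 0.66 in radiation-induced carcinomas, no longer called (limma adjusted p = 0.219), and at 0.99 in spontaneous ones (adjusted p = 0.0203). Radiation-induced minus normal was 0.55 within slide 3 (adjusted p = 0.621) and 1.197 within slide 4 (adjusted p = 0.618). Spontaneous minus normal was 0.23 on slide 1, 1.36 on slide 2 and 1.58 on slide 4, the one on slide 2 being called (adjusted p = 0.0347).

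Against its own guide, also set up after the values were seen, let-7d* was higher in spontaneous carcinomas than in normal tissue by 0.94 ± 0.30 relative to let-7d (limma adjusted p = 0.0188, 18.7% of all called higher). In radiation-induced carcinomas it was 0.80 ± 0.30 (limma adjusted p = 0.0729, 7.07% of all called higher), with 8 of 8 above the normal mean. The 4 let-7d* probes gave 0.83 to 1.47 for spontaneous and 0.23 to 1.01 for radiation-induced carcinomas against normal tissue. The 2 probes of the guide let-7d gave 0.17 and 0.52 for spontaneous carcinomas, the lower being the one used. With array brightness as a covariate, rno-let-7d* in spontaneous carcinomas was at 0.05 (limma adjusted p = 0.987), and relative to let-7d at -0.03 (limma adjusted p = 0.969). Spontaneous arrays were the dim ones, and the part of brightness in this result cannot be told apart from the group.

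let-7b*, the passenger arm of let-7b, was near the detection limit. It ran at 3.30 (the floor), 3.63 and 4.49 in radiation-induced carcinomas and 3.30, 3.94 and 6.87 in spontaneous carcinomas, and all 7 normal samples were at the floor. It was well above background on 5 of 8 radiation-induced, 3 of 8 spontaneous and 1 of 7 normal arrays. The spontaneous minus normal difference on the floored scale was 1.04 ± 0.38 (limma adjusted p = 0.0315). It was not called without spontaneous carcinoma 5 or without 6, and the call was lost in 11 of 20 alternatives. Among these were slide as a block (0.91, adjusted p = 0.0671) and only the 2 groups fitted (adjusted p = 0.0693). Others were the percentile over all probes (0.69, limma adjusted p = 0.0852), quantile normalization (0.76, adjusted p = 0.100) and the brightness covariate (0.15, adjusted p = 0.901). The size of the let-7b* difference depends on the floor. With the floor raised to the brightest detection limit of any array, rno-let-7b* stood at 0.27 (limma adjusted p = 0.359), and rno-let-7d* at 0.91 (limma adjusted p = 0.0217). The lowest signal well above background was 12.0 to 29.7 on spontaneous, 3.74 to 14.1 on radiation-induced and 3.90 to 9.56 on normal arrays.

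The passenger arms were high on the same arrays. Spontaneous carcinoma 7 had the highest value of both, 6.87 for let-7b* and 7.38 for let-7d*, followed by spontaneous carcinoma 6 at 4.99 and 6.48. Over 23 arrays the correlation of the 2 arms was r = 0.87 and rho = 0.86 (permutation p = 1e-05 each, the smallest the resamples allow; adjusted 1.33e-05 over 4 relations). The resamples exchanged arrays across groups, and both arms differ between groups, so this p includes the group differences. let-7b* was well above background on 9 of the 23 arrays. Without spontaneous carcinomas 6 and 7 r was 0.80. It was 0.68 within radiation-induced and 0.95 within spontaneous carcinomas, and not defined in normal tissue, where let-7b* was at the floor. Carcinoma 7 was also the second dimmest array (75th percentile 442) and had the highest detection limit.

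**Figure D4:**
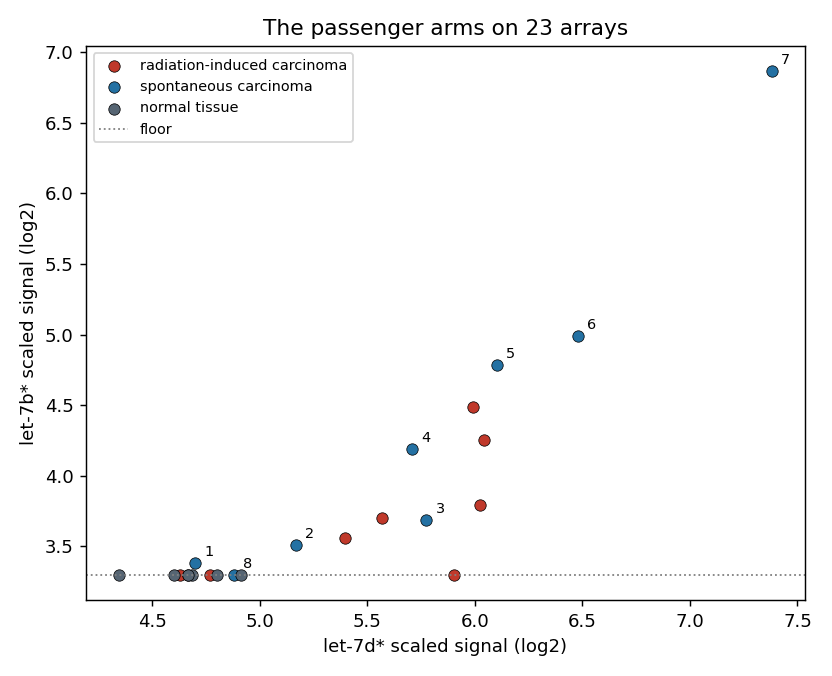
let-7b* (y axis) against let-7d* (x axis), log2 scaled signal on each of 23 arrays, coloured by group, with spontaneous carcinomas numbered and the floor dotted. Spontaneous carcinoma 7 lies alone at the upper right (7.38, 6.87), and the 7 normal samples lie on the floor with let-7d* of 4.35 to 4.91.

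Some single arrays stood apart within their group. Spontaneous carcinoma 1, with none of the miR-200 family detected, had the lowest value of its group for let-7a, let-7b, let-7c, let-7d, let-7e and let-7f. Against the nearest other spontaneous array it was lower for let-7b (10.12, nearest 12.31) and let-7c (10.64, nearest 12.94) by more than 2 log2 units. Its let-7i, 11.26, and miR-98, 7.93, lay inside the range of the group. Radiation-induced carcinoma 3, which also lacked miR-200, had the lowest let-7b (12.42) and let-7d (10.99) of its group, but close to its neighbours, and a let-7i of 12.15. Radiation-induced carcinoma 1 had the highest value of its group for let-7a, let-7b, let-7c, let-7d, let-7e and let-7f.

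The SD within a group was lowest in normal tissue for each of the 8 guides, from 0.08 for let-7d to 0.15 for let-7e. In radiation-induced carcinomas it ran from 0.17 for let-7a to 0.35 for let-7i. In spontaneous carcinomas it ran from 0.26 for miR-98 to 0.98 for let-7b, which includes carcinoma 1. The animals behind the normal samples are not stated, so how much biological spread they hold was not tested.

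**Figure D5:**
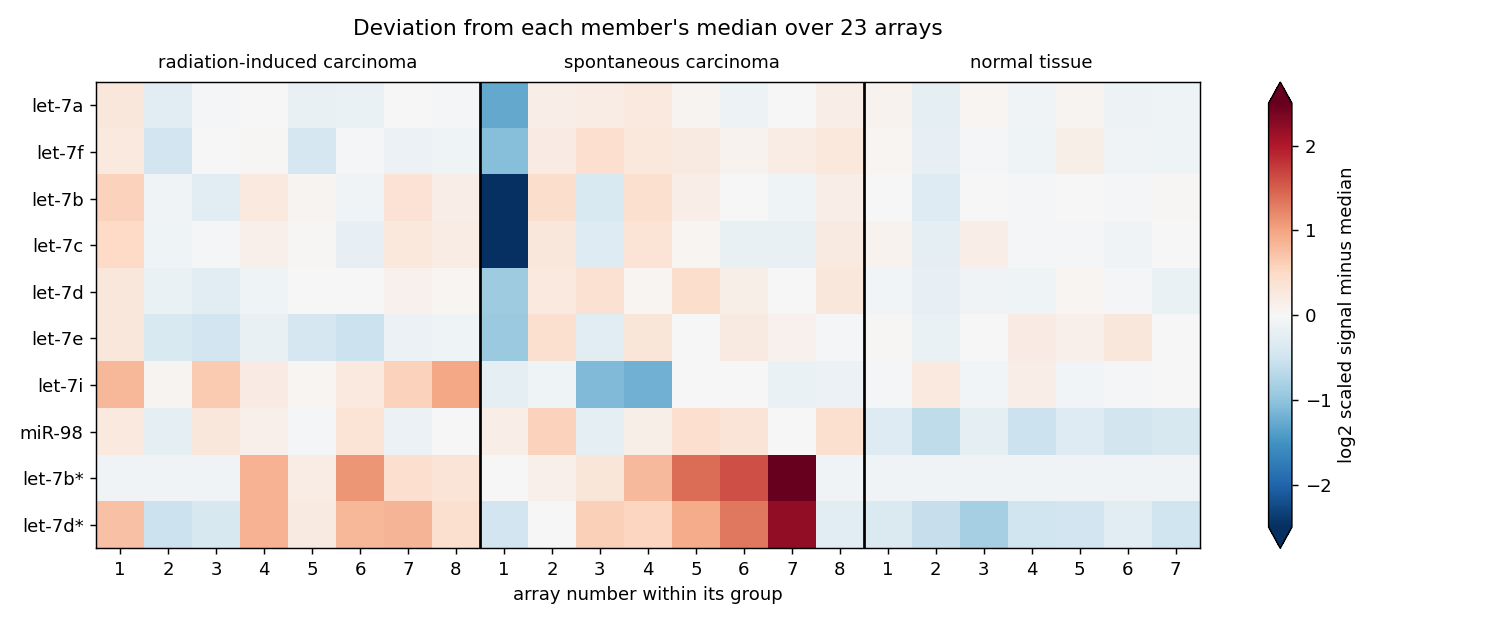
Log2 scaled signal of each member minus its median over 23 arrays (colour, blue below and red above), with members in rows and arrays in columns by group. Spontaneous carcinoma 1 is blue in the rows let-7a to let-7e, spontaneous carcinomas 3 and 4 in let-7i, the normal arrays in miR-98, and spontaneous carcinoma 7 is the reddest in let-7b* and let-7d*.

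Members varied together in part. let-7a and let-7f correlated with r = 0.92 and rho = 0.86 over 23 arrays (permutation p = 1e-05, the smallest possible; adjusted 1.33e-05), and r was 0.85 without spontaneous carcinoma 1 and radiation-induced carcinoma 1. let-7b and let-7c correlated with r = 0.99 and rho = 0.90 (same p), and r was 0.88 without those 2. These resamples too exchanged arrays across groups. Within groups r was 0.85, 0.99 and 0.90 for the first pair and 0.91, 1.00 and 0.79 for the second, in radiation-induced, spontaneous and normal samples. let-7a and let-7i had r = -0.05 and rho = -0.32 over all arrays (permutation p = 0.767 and 0.142). The value near 0 rested on spontaneous carcinoma 1: r was -0.32 without it and -0.54 without radiation-induced carcinoma 1 as well. Within groups r was 0.69 in radiation-induced, -0.25 in spontaneous and -0.76 in normal samples. let-7a and let-7f differ by 1 base, as do let-7b and let-7c, and cross-hybridisation was not tested.

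The non-members most like let-7a were miR-352 (r = 0.83), miR-30a* (0.74), miR-185 (0.70) and miR-146b (0.68). These rested largely on the 2 arrays farthest from the median, since without spontaneous carcinoma 1 and radiation-induced carcinoma 1 the values were 0.50, 0.20, 0.39 and -0.02.

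Several let-7 genes lie in clusters with the miR-99, miR-100 and miR-125 genes, which are processed from shared transcripts in mammals, and 8 of 11 listed partner miRNAs were tested. Between radiation-induced and spontaneous carcinomas 2 of 8 partners were higher and 2 lower, against 8.04% and 10.1% of all tested miRNAs. miR-125b-5p rose by 1.32 ± 0.28 (limma adjusted p = 0.0121) and miR-100 by 0.93 ± 0.24 (limma adjusted p = 0.0182), while miR-99b fell by 0.57 and miR-99b* by 1.01. let-7a, which shares a cluster with miR-100, and let-7e, which shares one with miR-99b, were not called in this comparison. Against normal tissue, 0 partners were called by limma in radiation-induced carcinomas (16.6% of all were higher and 8.54% lower). There 1, miR-99b, had an unadjusted p under 0.05, as had 75 of all 199 tested miRNAs. In spontaneous carcinomas 1 of 8 was higher, miR-99b by 1.01 ± 0.16, against 26.1% of all, and 3 were lower, against 14.6%. Those were miR-99a (2.46-fold lower), miR-100 (2.47-fold lower) and miR-125b-5p (2.14-fold lower). The mean of let-7c, whose gene on chromosome 11 neighbours that of miR-99a, differed by -0.28 ± 0.30 there. The other passenger arms on the array were rarely detected: let-7e* on 5 and let-7i* on 2 of 23 arrays, and neither was tested.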

How the data were processed

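The deposited scanner files hold, per the file headers, Agilent Feature Extraction 9.5.1.1 output, 1 file per array. The intensity used was the processed signal as deposited, which the authors' scanner software had background-subtracted. No step after scanning is stated for these files. The deposited value table (unit intensity, per the match below) was an alternative: for 350 miRNAs, 100% of its values above the lowest (5) lay within 1% of the total gene signal of the scanner files, so it is on a linear scale, neither centred nor scaled between arrays. Its column medians were 5 to 20.7.

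Unmarked spots of a probe were averaged, control spots left out, each array scaled by its 75th percentile over 199 probes seen on every array, floored at 9.82 and turned into log2. Of 938 probes, 35.7% of values were well above background. The probe with the highest mean stood for a miRNA. limma 3.58.1 (R 4.3.3) fitted 1 mean per group over 23 arrays and 199 miRNAs detected on at least 7 arrays, with Benjamini-Hochberg adjustment. On simulated independent values of known change, the changes that the fit called had the right signs. The simulation held no slide or brightness differences, so it cannot show how the fit behaves under them. The normexp alternative (offset 50) used the median signal and background columns, the files having no mean signal column. The members, the marker and partner lists, and the alternatives were chosen with earlier results of these data known. All 10 members are named, with the 4 non-members of highest Pearson correlation with let-7a and with let-7i. The differences relative to let-7d and to let-7f were added after the values were seen. The precision is limited by the number of arrays. Carcinoma numbers follow accession order and pair nothing.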

Additional observations from a re-analysis of the deposited data

Results flagged for a closer look

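Of 29 sets of array values tested for a sample far from the rest of its group, 6 were marked, where chance marks about 1 in 20. On spontaneous carcinoma 1 the values of let-7a (11.78, nearest other array 12.92), let-7b (10.12, nearest 12.31), let-7c (10.64, nearest 12.94), let-7d (10.38, nearest 11.29) and let-7f (11.91, nearest 13.06) lay far below the rest of the spontaneous carcinomas. These 5 come from 1 array, which also had 0 of the 5 miR-200 family miRNAs detected. On normal sample 2, let-7b was at 12.37, with the nearest other normal sample at 12.65.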

How the results depend on the processing

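Counts of let-7 members called moved with many settings. For radiation-induced against spontaneous carcinomas (1 as reported) there were 0 with quantile normalization, slide as a block, the brightness covariate, only the 2 groups, only M-coded spontaneous carcinomas or slide 4 alone, 9 with no scaling (49.7% of all tested miRNAs were called), 8 with the deposited value table (49.7%), 4 with normexp (1 higher and 3 lower, against 5.53% and 48.7% of all) and 2 without the carcinomas lacking miR-200 (24.1%), against 18.1% as reported. Where that comparison gave 0, between 0% and 10.1% of all were called. Radiation-induced carcinomas against normal tissue (2, with 25.1% of all called) gave 0 with the percentile over all probes (17.6%), quantile normalization (17.6%), no scaling (13.6%), the deposited value table (12.6%), slide as a block (14.1%) or slide 3 (0%). Slide 4, with 1 normal array, is left out of the list for that comparison. There was 1 with the percentile without let-7 probes, normexp or the mean of all probes (20.1% each). There was also 1 with detection on at least 1 array (18.1%), the raised floor (14.1%) or the brightness covariate (17.6%). The exact permutation test, which was not adjusted and was run on the members only, gave 5. For spontaneous carcinomas against normal tissue (3) there were 8 with no scaling or the deposited value table (all lower, as were 56.3% and 52.8% of all miRNAs), 5 without the carcinomas lacking miR-200 (51.3% of all called, 40.7% as reported), 1 with quantile normalization or on slide 2, and 0 with the brightness covariate or on slide 1 or 4. Percentile scaling over all probes gave 2, both lower (let-7e and let-7i), where 28.6% of all were lower. Of all tested miRNAs, 36.2% were called with quantile normalization, 14.1% on slide 2, 2.01% with the brightness covariate and 0% on slide 1.

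Relative to let-7a, the first comparison (1) gave 3 with normexp (1 higher and 2 lower, against 4.55% and 43.9% of all) and 0 with quantile normalization, detection on at least 1 array, the raised floor, slide as a block, the brightness covariate, only the 2 groups, only M-coded spontaneous carcinomas, slide 4 or let-7c as the base. Where the first comparison gave 0, between 0% and 11.1% of all were called, against 11.6% as reported. The second (0, with 13.6% of all called) gave 1 with quantile normalization (15.7%) and 2 without the carcinomas lacking miR-200 (46.5%). It gave 4 with only the 2 groups (36.9%) or only M-coded spontaneous carcinomas (36.4%), so these counts rose with the share of all. The third (3, with 37.4% of all called) gave 0 with the brightness covariate (0%) and on slides 1 (0%) and 2 (17.2%). Leaving out 1 array gave 1 to 2, 1 to 2 and 2 to 5 members in the 3 comparisons, and relative to let-7a 0 to 1, 0 to 2 and 2 to 4. The shares of all miRNAs called in those fits are not given here.

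Signs turned, with a call in the reported fit or in the alternative, on unscaled values, where the dimmer spontaneous arrays were compared directly. Radiation-induced minus spontaneous, with no scaling: rno-let-7d 0.84, rno-let-7e 0.71, rno-let-7f 0.75, rno-miR-98 0.78 and rno-let-7d* 0.70, and in the deposited value table let-7d 0.76, let-7e 0.64, let-7f 0.72 and miR-98 0.75. Spontaneous minus normal, with no scaling: let-7d -1.18, let-7f -1.23, miR-98 -0.71 and let-7d* -0.24 (not called there), and in the deposited value table let-7d -1.05, let-7f -1.17 and miR-98 -0.64. With the brightness covariate, let-7d* relative to let-7d was -0.033. The cause was not tested. Over single members, 440 of the values under alternatives kept direction and call, 49 lost a call, 33 gained one, 59 changed sign without a call and 16 turned with one.

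No paired analysis was possible because the carcinoma numbers only follow accession order. Dim arrays limit let-7b*, and the few arrays per slide limit the fits within slides. Slide 4 held 1 normal array, which is assumed there to vary like the other groups.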
